A study of Mus musculus with 24 samples.

Results

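Of the RING-type ubiquitin ligase genes named Trim or Rnf, 2 answered TWEAK in wild-type dermal fibroblasts at both times sampled, Rnf19b and Trim47, and neither passed the test in fibroblasts without NIK. The genes described here are the rows of the count table whose symbol is Trim or Rnf followed by a number and whose counts sum to at least 200 unique molecular identifiers (UMIs) over 24 libraries. They number 86 of the 13479 genes in the table, 31 of them Trim and 55 Rnf. A further 14 rows with such a symbol summed to less and were left out. The nearest below the threshold were Rnf227 with 191 and Trim30a with 183 UMIs, and the nearest above it were Trim30d with 232 and Rnf170 with 379 UMIs.

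Ubiquitin ligases choose the proteins to which ubiquitin is attached. Most genes named Rnf encode a RING finger, which brings a ubiquitin-loaded E2 enzyme to the substrate, and RBR ligases such as Rnf19b first take the ubiquitin onto a cysteine of their own. TRIM proteins join a RING to B-box and coiled-coil domains and a variable C-terminal part, and many act in antiviral defence. TWEAK is a TNF-family cytokine whose receptor, Fn14, is found on fibroblasts. Its receptor complex draws TRAF and cIAP proteins away from the kinase NIK (Map3k14), which they otherwise mark for degradation. NIK then activates the non-canonical NF-kB pathway, in which the Nfkb2 precursor is processed and RelB complexes enter the nucleus.

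RNA was counted in primary dermal fibroblasts from mouse skin at the fifth passage. There were NIK knockout cells (KO), cells carrying an allele that the labels call NIK X mut (MUT), and wild-type littermate cells (WT). Each genotype was sampled untreated and after TWEAK at 100 ng/ml for 6 or 24 h, with 2 libraries per group in KO, 2 in MUT and 4 in WT. The comparisons ask which of these genes TWEAK moves and whether the movement depends on NIK. Both alleles were carried by the mice from which the cells were grown. The labels do not say what the X mutation changes, nor whether replicates came from different animals, so p-values measure the spread between these samples. Library names give 3 h where the sample labels give 6 h, and the labelled 6 h is used. Untreated cells were not sampled at 6 or 24 h, so TWEAK and time in culture cannot be told apart. In RNA from whole cultures, fewer cells of a type and less RNA per cell cannot be told apart either.

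Library totals ran from 889863 to 4342981 UMIs, and all 86 genes passed the filter on low counts, among 11337 genes tested. Map3k14 itself had 0 to 0.603 CPM in KO libraries, 25.5 to 55.6 CPM in MUT libraries and 15.2 to 64.0 CPM in WT libraries. All 8 dermal fibroblast markers were present, summing to 6765 to 14986 CPM, and markers of keratinocytes, leukocytes, endothelium, and melanocytes and Schwann cells summed to at most 36.9 CPM for each cell type. The 4 skeletal muscle markers summed to 54.4 to 295 CPM, and Adipoq, Plin1, Cidec, Ptprc, Adgre1, Pecam1, Tie1, Krt5, Krt1, Dct and Tyrp1 are not among the rows analysed here. The libraries fell into 2 sets along the first principal component, which held 30.9% of the variance: KO with WT replicates 1 and 2 at -29.4 to -6.11, and MUT with WT replicates 3 and 4 at 4.47 to 28.7. Summed levels of 16 cell cycle genes moved with the sets, at 246 to 303 CPM in KO and 231 to 552 CPM in WT replicates 1 and 2, against 481 to 1589 CPM in MUT and 468 to 1796 CPM in WT replicates 3 and 4. A difference between KO and MUT is therefore also a difference between sets, and the WT comparisons were repeated within each set.

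Together the 86 genes took a mean of 0.509%, 0.566% and 0.539% of all UMIs in KO cells at 0, 6 and 24 h, 0.499%, 0.516% and 0.533% in MUT cells, and 0.511%, 0.567% and 0.600% in WT cells. Levels are given in CPM, UMIs scaled to TMM-normalised library size, and since only the 3′ end of a transcript is counted they do not rise with its length. The highest level was that of Trim28, the co-repressor of KRAB zinc finger proteins also called KAP1, at a mean of 296 CPM over all libraries. Trim35 followed at 276 CPM, Rnf19b at 270 CPM and Rnf149 at 268 CPM, while Trim30d was lowest at 4.21 CPM. The median gene stood at 34.2 CPM. Between the highest and lowest of the 9 group means the median ratio was 1.80, and 58 of the 86 genes had a ratio under 2. The widest ratio, 3.96, was that of Trim47.

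In WT cells few of these genes passed the test with TWEAK in the fit that did not pair libraries by replicate number. A gene is called when its Benjamini-Hochberg adjusted p over all tested genes is under 0.05 in the edgeR quasi-likelihood test. At 6 h, 3 of 86 rose and 0 fell, 3.49% of them, against 6.41% of all genes tested (4.35% higher and 2.06% lower). At 24 h, 4 rose and 1 fell, 5.81% of them, against 6.87% of all genes (3.68% higher and 3.19% lower). At both times the share called was near that of all genes. Their median log2 change was 0.02 at 6 h and 0.03 at 24 h, against -0.01 and -0.00 over all genes. The called genes were Rnf19b and Trim47 at both times, Rnf149 at 6 h, and Trim44, Trim2 and Trim46 at 24 h, with Trim46 the one that fell. Both times are set against the same untreated libraries.

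**Figure D1:**
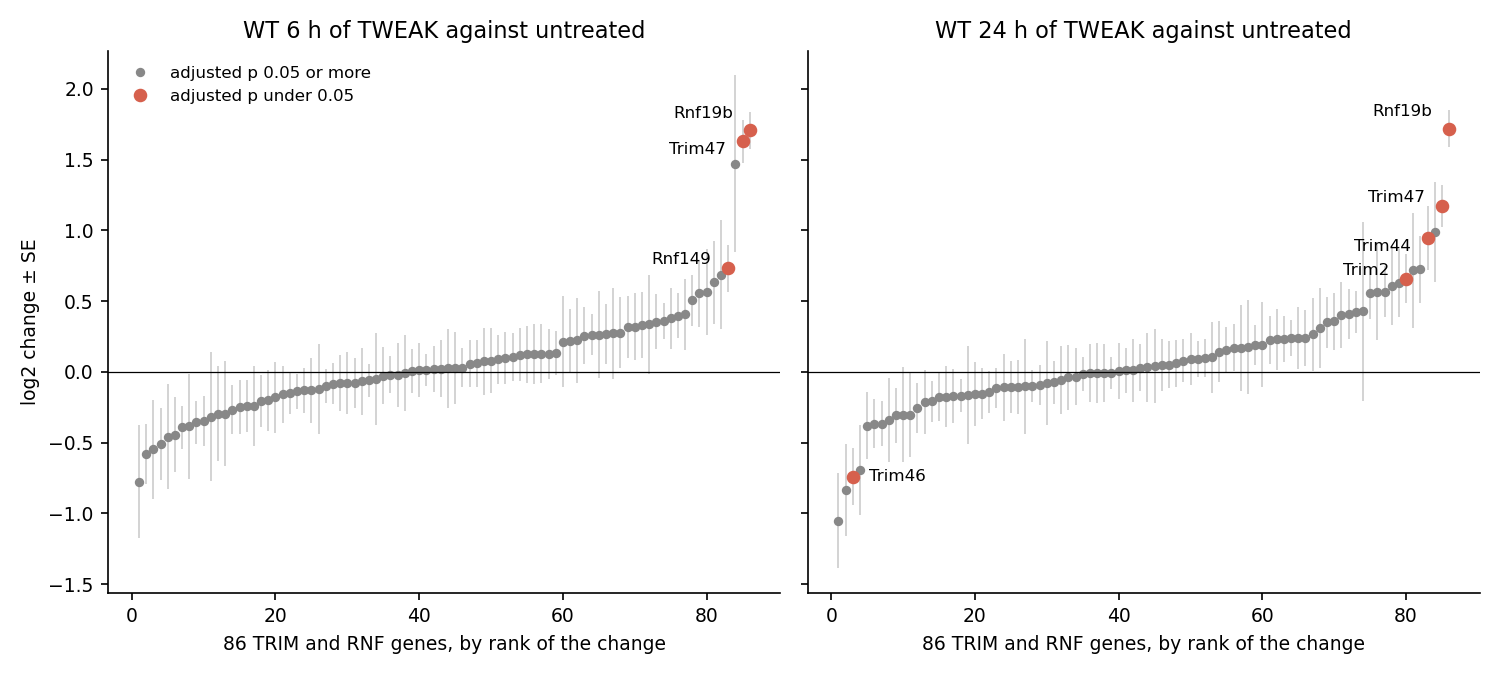
Log2 change ± SE of the 86 genes in WT cells, ranked, at 6 h (left) and 24 h (right) of TWEAK against untreated, with genes past the test in orange and named. Rnf19b lies at the top at both times, at 1.71 and 1.72, and most of the other genes lie near 0.

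Same-numbered WT libraries were paired (correlated across genes), and with the replicate number as a block the WT counts were larger, 5 genes at 6 h and 15 at 24 h. The shares of all genes given above are from the fit without the block. The larger counts therefore have no such share beside them and do not set ligase genes apart from other genes. The 2 added at 6 h were Trim8, at a log2 change of 0.49 (adjusted p = 0.0416), and Trim46, at -0.63 (adjusted p = 0.0365). Among the 10 added at 24 h, Rnf213, an interferon-inducible giant ligase with an ATPase core, had a log2 change of 0.73 (adjusted p = 0.00873), and Rnf150, a membrane-anchored RING protein, one of 1.01 (adjusted p = 0.0229). Trim66, a relative of the chromatin readers Trim24 and Trim33, had one of -1.07 (adjusted p = 0.0121). The other 7 were Trim7, Rnf135, Rnf25, Trim33 and Trim24 on the higher side and Rnf128 and Rnf166 on the lower side, and the block left all 5 genes called without it past the test. Without the block, the 24 h count was 3 when WT 24 h replicate 1 was left out and 8 when WT 24 h replicate 4 was left out, and the 6 h count was 2 when WT 6 h replicate 4 was left out.

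Rnf19b encodes a membrane-anchored RBR ligase first described in natural killer cells. In KO cells it had 138 and 142 CPM untreated, 122 and 154 CPM at 6 h, and 144 and 140 CPM at 24 h. In MUT cells it had 150 and 136 CPM untreated, 287 and 264 CPM at 6 h, and 273 and 282 CPM at 24 h. In WT cells it had 150, 129, 133 and 152 CPM untreated, 428, 383, 495 and 531 CPM at 6 h, and 473, 375, 500 and 507 CPM at 24 h. The untreated levels of the 3 genotypes overlapped, and TWEAK separated them into 3 steps: every treated WT library was above every treated MUT library, and every treated MUT library was above every KO library. In WT the rise was 3.26-fold at 6 h (log2 change 1.71 ± 0.13 SE, adjusted p = 1.22e-08) and 3.30-fold at 24 h (1.72 ± 0.13, adjusted p = 8.88e-09, edgeR). Between 24 and 6 h the WT level differed by 0.01, with a 95% interval of -0.25 to 0.28. In MUT the log2 change of Rnf19b was 0.94 ± 0.18 at 6 h (adjusted p = 0.00845) and 0.95 ± 0.18 at 24 h (adjusted p = 0.0121). The MUT rise was smaller in size than the WT one, and treated and untreated KO libraries overlapped. In KO the change was -0.01 ± 0.19 and 0.03 ± 0.19, with 95% intervals of -0.40 to 0.38 and -0.36 to 0.41.

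The Rnf19b response of KO cells was smaller than that of WT cells by a log2 difference of -1.71 ± 0.23 at 6 h (edgeR interaction contrast, adjusted p = 0.00223) and -1.69 ± 0.23 at 24 h (adjusted p = 0.000806). With WT replicates 1 and 2 alone, the libraries of the same set as KO, the 6 h difference was -1.54 (adjusted p = 0.00637). Leaving out KO 6 h replicate 1 gave -1.56 with an adjusted p of 0.0543, and a fit of those 4 groups alone gave -1.73 with an adjusted p of 0.161. Between MUT and WT the difference in Rnf19b response was -0.76 ± 0.22 at 6 h and -0.77 ± 0.22 at 24 h. Neither passed after adjustment over all genes (adjusted p = 0.99993 and 0.551), although the treated libraries did not overlap and the 95% intervals, -1.23 to -0.30 and -1.23 to -0.30, lie below 0. The MUT rise itself missed the threshold when any 1 of its libraries was left out (adjusted p from 0.0534 to 0.159 at 6 h and from 0.0876 to 0.256 at 24 h), with log2 changes of 0.89 to 1.03 and 0.89 to 1.02.

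Trim47, a TRIM protein with a C-terminal SPRY domain, rose in WT and MUT and reached its highest level at 6 h. In KO cells it had 103 and 62.3 CPM untreated, 87.6 and 101 CPM at 6 h, and 108 and 90.5 CPM at 24 h. In MUT cells it had 83.7 and 99.1 CPM untreated, 239 and 262 CPM at 6 h, and 185 and 196 CPM at 24 h. In WT cells it had 111, 92.6, 111 and 108 CPM untreated, 330, 323, 363 and 292 CPM at 6 h, and 190, 231, 280 and 251 CPM at 24 h. No treated KO library reached any treated MUT or WT library, and the MUT and WT ranges overlapped at 24 h but not at 6 h. The rise of Trim47 in WT was 3.10-fold at 6 h (log2 change 1.63 ± 0.15 SE, adjusted p = 2.13e-07) and 2.25-fold at 24 h (1.17 ± 0.15, adjusted p = 1.56e-05, edgeR). In MUT it was 1.46 ± 0.21 at 6 h (adjusted p = 0.000379) and 1.06 ± 0.21 at 24 h (adjusted p = 0.0156). For Trim47 too, treated and untreated KO libraries overlapped. In KO its log2 change was 0.19 ± 0.22 and 0.25 ± 0.22, with intervals of -0.27 to 0.64 and -0.20 to 0.70. At 24 h the WT level of Trim47 was below that at 6 h, with a log2 difference of -0.46 ± 0.15. This missed the threshold by edgeR without the replicate block (adjusted p = 0.0798). It passed with the block (-0.46, adjusted p = 0.0225) and by DESeq2 (-0.47, adjusted p = 0.0364).

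**Figure D2:**
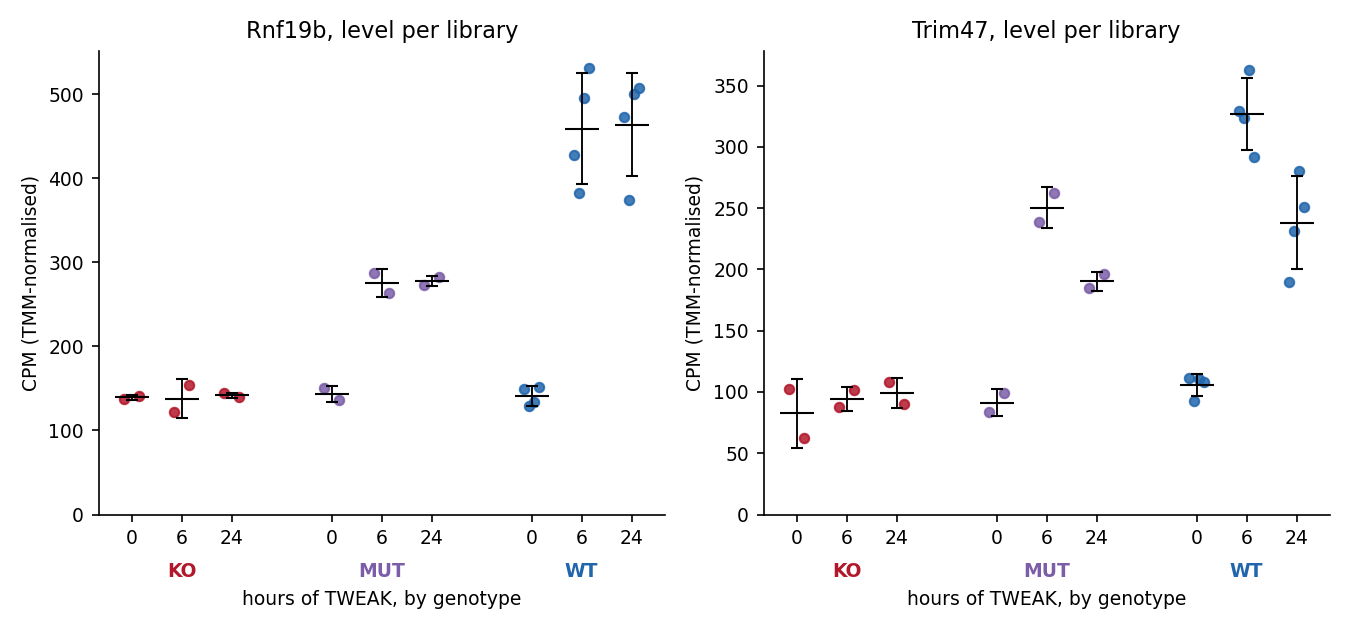
Levels of Rnf19b (left) and Trim47 (right) in TMM-normalised CPM in each library (points), with group mean and SD (bars), by genotype and hours of TWEAK. KO libraries stay between 122 and 154 CPM for Rnf19b, while treated MUT libraries reach 264 to 287 and treated WT libraries 375 to 531.

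The Trim47 response of KO cells differed from that of WT cells by -1.44 ± 0.26 at 6 h (log2, adjusted p = 0.0365) and by -0.92 ± 0.26 at 24 h (adjusted p = 0.216). The 6 h difference passed in 11 of 19 alternative fits. It was lost without KO untreated replicate 1 (-1.04, adjusted p = 0.635), whose level was well above that of the other untreated KO library, without either KO 6 h library, without WT untreated replicate 2 or 4, without WT 6 h replicate 1 or 3, and in a fit of those 4 groups alone. Between MUT and WT the Trim47 response differed by -0.17 at 6 h (95% interval -0.70 to 0.36) and -0.11 at 24 h (-0.64 to 0.41). The MUT rise of Trim47 at 6 h passed in all 11 alternatives, and that at 24 h missed the threshold when any 1 of its 4 libraries was left out (adjusted p from 0.0876 to 0.258).

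Because Rnf19b and Trim47 moved together, the stretches around their RefSeq start sites are shown, 250 bases before to 50 after, on the gene's strand in GRCm38.p6. The Rnf19b window is chr4:129057894-129058193 on the plus strand and the Trim47 window is chr11:116110186-116110485 on the minus strand. Capitals mark the GC box core GGGCGG or its reverse complement CCGCCC, both strands being searched.
Rnf19b: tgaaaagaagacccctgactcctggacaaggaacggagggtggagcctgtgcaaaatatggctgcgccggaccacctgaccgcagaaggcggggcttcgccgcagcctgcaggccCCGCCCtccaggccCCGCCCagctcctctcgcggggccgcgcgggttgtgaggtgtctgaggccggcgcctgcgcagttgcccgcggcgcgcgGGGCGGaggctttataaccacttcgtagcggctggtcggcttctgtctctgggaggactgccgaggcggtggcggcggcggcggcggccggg
Trim47: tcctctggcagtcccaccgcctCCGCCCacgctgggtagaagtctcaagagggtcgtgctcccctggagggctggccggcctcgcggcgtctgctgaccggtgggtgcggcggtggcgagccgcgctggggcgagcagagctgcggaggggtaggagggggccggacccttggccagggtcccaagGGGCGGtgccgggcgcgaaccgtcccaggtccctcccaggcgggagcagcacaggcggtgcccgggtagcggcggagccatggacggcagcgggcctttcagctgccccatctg
Rnf19b held 3 such matches, at -135, -121 and -42 from the start, and Trim47 held 2, at -228 and -64. Of the 86 genes, 68 had a RefSeq window, and 54 of these (79.4%) held GGGCGG in some window, against 38.2% of 27025 genes. The 27025 genes were not filtered by expression or gene type, while the 68 were expressed and protein-coding. Shares are therefore set against an unlike set, for this motif and the next. The NF-kB consensus was in a window of 27 of the 68 genes (39.7%), against 29.4% of all genes, and in 26.8% of all 32851 windows. Neither the Rnf19b nor the Trim47 window contained the letters of that consensus, GGRNNNYYCC (R is A or G, Y is C or T, N any base). Among the called genes only Trim46, which fell in WT, held it. The GENCODE model of Trim47 begins further upstream, at 116127210, where no window was searched. A match is a string of letters and was not measured as a binding site.

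In the GENCODE M21 annotation of GRCm38, Rnf19b lies at chr4:129058271-129085886 on the plus strand and overlaps no other gene. Trim47 lies at chr11:116105752-116127210 on the minus strand and overlaps Trim65 on the same strand, but not in its last kilobase, where most 3′ reads fall. Trim65 had 97 UMIs over all libraries. All 86 genes were protein-coding, and 16 of them lay on chromosome 11 and 13 on chromosome 7. Reads of near-identical copies, such as Trim12a and Trim12c or Trim30d and Trim30a, may have been divided between copies, and their counts are uncertain.

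Rnf149 encodes a membrane-spanning ligase with a protease-associated domain, and human RNF149 marks wild-type BRAF for degradation. In KO cells it had 178 and 214 CPM untreated, 247 and 207 CPM at 6 h, and 187 and 193 CPM at 24 h. In MUT cells it had 238.4 and 248.9 CPM untreated, 452 and 444 CPM at 6 h, and 289 and 300 CPM at 24 h. In WT cells it had 181, 206, 210 and 258 CPM untreated, 264, 261, 427 and 463 CPM at 6 h, and 219, 218, 254 and 269 CPM at 24 h. All 4 WT libraries at 6 h stood above all untreated WT libraries, and those of replicates 3 and 4 stood far above those of replicates 1 and 2. The log2 change of Rnf149 in WT was 0.73 ± 0.17 at 6 h (adjusted p = 0.00855) and 0.17 ± 0.17 at 24 h (adjusted p = 0.629). At 24 h the WT libraries overlapped the untreated ones again. Within WT replicates 3 and 4 the 6 h change was 0.93 (adjusted p = 0.000183), and within replicates 1 and 2 it was 0.44 (adjusted p = 0.117). Without WT 6 h replicate 4 it was 0.58 (adjusted p = 0.0516), and in a fit of the WT groups alone 0.74 (adjusted p = 0.136). The size of the WT change thus rested largely on replicates 3 and 4. In MUT, which shares the set of WT replicates 3 and 4, the 6 h change was 0.88 ± 0.23 (adjusted p = 0.0547), and with the replicate block 0.88 (adjusted p = 0.00252). The numbers were not seen to pair MUT libraries. By DESeq2, without the block, the MUT 6 h change was 0.90 (adjusted p = 0.0140). In KO it was 0.21 ± 0.24, and the KO response did not pass as different from the WT one (-0.52 ± 0.29, adjusted p = 1). Rnf149 overlaps the gene model Gm15832 on its own strand, also in the last kilobase, and counts of the overlapping pair may have been divided.

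Trim44, Trim2 and Trim46 were past the test in WT cells at 24 h. Trim44 lacks a RING and carries a zinc finger of the kind found in ubiquitin proteases. Its WT level was 29.2, 42.4, 43.3 and 27.4 CPM at 24 h, against 14.8, 22.5, 15.3 and 21.9 CPM untreated. The groups did not overlap, and the log2 change of Trim44 was 0.95 ± 0.22 (adjusted p = 0.0110). It was 0.07 ± 0.35 in KO and 0.00 ± 0.28 in MUT, where the untreated libraries had 23.6 and 36.0 CPM. WT cells at 6 h had 15.4, 27.7, 35.2 and 28.1 CPM of Trim44. Replicate 1 lay within the untreated range, the others lay above it, and Trim44 was not called there. In KO cells at 6 h Trim44 had 31.9 and 32.3 CPM, against 16.4 and 21.01 CPM untreated, a log2 change of 0.80 ± 0.34 that did not pass (adjusted p = 1). The KO libraries at 6 h did not overlap the untreated KO ones. Within each pair of WT replicates the change was of like size, 0.93 in replicates 1 and 2 and 0.99 in replicates 3 and 4, and missed the threshold in both.

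Trim2 encodes a ligase with an NHL domain that binds neurofilament light chain in neurons. In WT cells it had 52.5, 57.8, 41.3 and 40.5 CPM at 24 h, against 26.3, 38.0, 31.0 and 25.7 CPM untreated. The groups did not overlap, and at 6 h the WT libraries were at 29.6, 33.0, 19.6 and 20.6 CPM. The log2 change of Trim2 was 0.66 ± 0.17 at 24 h (adjusted p = 0.0232), and 24 h exceeded 6 h by 0.91 ± 0.18 (adjusted p = 0.00944). It was the one gene of the 86 past the test between 24 and 6 h, where 3.87% of all genes passed (1.64% higher and 2.23% lower at 24 h). The block raised that count to 6, adding Trim7, Trim59 and Trim28 as higher and Rnf149 and Trim47 as lower at 24 h. The share of 3.87% is from the fit without the block, and that with the block is not given here. In KO cells Trim2 had 35.6 and 28.99 CPM at 24 h, against 35.8 and 38.5 CPM untreated, and in MUT cells 37.4 and 39.3 CPM, against 36.2 and 31.7 CPM untreated. Its 24 h change was -0.20 ± 0.26 in KO and 0.17 ± 0.24 in MUT, and neither passed. The difference from the WT change at 24 h was -0.86 ± 0.31 for KO (adjusted p = 0.457) and -0.49 ± 0.30 for MUT (adjusted p = 1), and neither passed. In MUT the 6 h change of Trim2 was -0.71 ± 0.26 (adjusted p = 0.1995, with the replicate block -0.70, adjusted p = 0.0441). That block uses numbers that were not seen to pair MUT libraries. The 24 h call in WT was lost in 6 of 16 alternatives, among them those without WT 24 h replicate 1 (0.62) or 2 (0.56) and without WT untreated replicate 1 (0.59) or 4 (0.60).

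Trim46 encodes a protein known from neurons, where it bundles microtubules at the start of the axon. In WT cells it had 11.5, 23.0, 23.1 and 20.3 CPM at 24 h, against 32.4, 34.1, 31.0 and 32.8 CPM untreated. The groups did not overlap, and replicate 1 was lowest at 24 h. Trim46 fell by 0.74 ± 0.20 on the log2 scale (adjusted p = 0.0265), and by 0.55 without WT 24 h replicate 1, where it no longer passed. In MUT cells it had 13.1 and 18.0 CPM at 24 h, against 28.3 and 26.8 CPM untreated, a log2 change of -0.83 ± 0.28 (adjusted p = 0.268). In KO cells it had 30.1 and 31.99 CPM at 24 h, against 34.1 and 25.2 CPM untreated, a change of 0.05 ± 0.29. The difference between the KO and WT responses of Trim46 was 0.79 ± 0.35 and did not pass (adjusted p = 0.612). Krtcap2 lies across Trim46 on the other strand, and the sources used here do not say whether counting used strand.

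**Figure D3:**
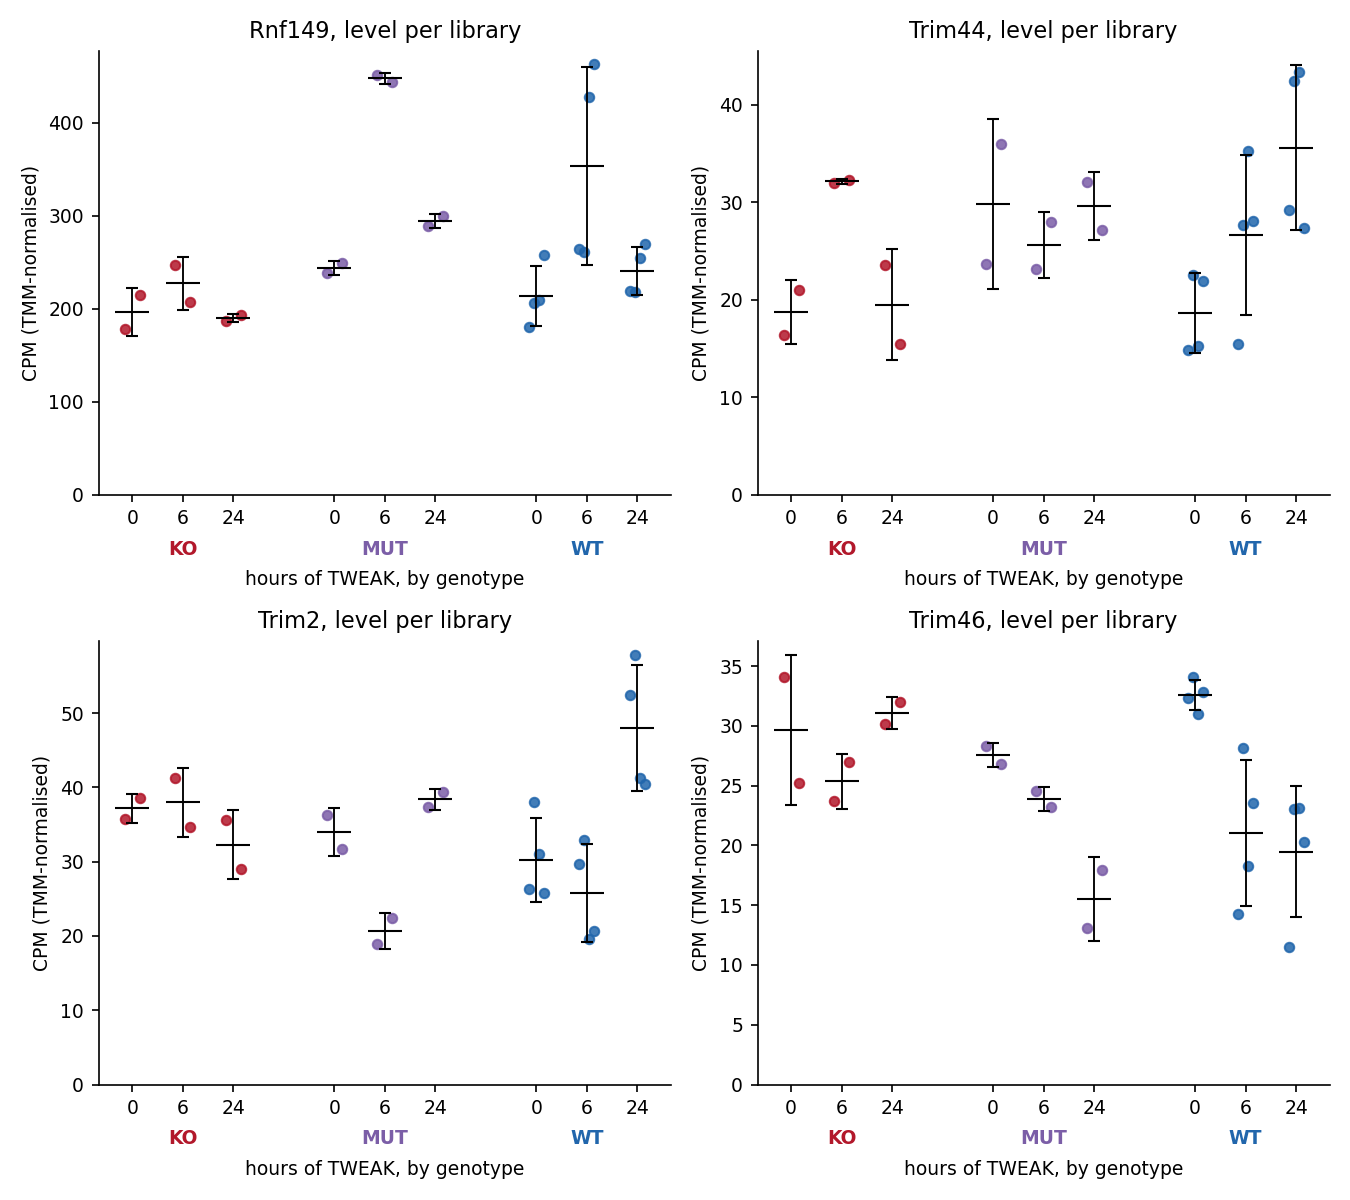
Levels in TMM-normalised CPM of Rnf149, Trim44, Trim2 and Trim46 in each library (points), with group mean and SD (bars), by genotype and hours of TWEAK. Rnf149 peaks at 6 h in WT and MUT, Trim44 and Trim2 are highest at 24 h in WT, and Trim46 is lower at 24 h in WT.

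In MUT cells 2 of the 86 genes, Rnf19b and Trim47, rose at 6 h and the same 2 at 24 h, and 0 fell. That is 2.33% of the ligase genes at each time, against 1.98% of all genes at 6 h (1.5% higher and 0.485% lower) and 0.688% at 24 h (0.494% higher and 0.194% lower). With the replicate block the 6 h count was 5, adding Rnf149, Trim2 and Trim59, but the numbers were not seen to pair MUT libraries. The share of all genes called with the block is not given here. Trim59 had 23.2 and 16.4 CPM in MUT cells at 6 h, against 40.2 and 46.8 CPM untreated, and the cell cycle genes summed to 497 and 481 CPM at 6 h, against 1053 and 985 CPM untreated. Their part in the Trim59 value was not tested. When 1 MUT library was left out, the count was 1 at 6 h (Trim47) and 0 at 24 h for each of the libraries.

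In KO cells no gene of the 86 passed at 6 or 24 h, by edgeR or by DESeq2, and unadjusted p was under 0.05 for 7 at 6 h and 5 at 24 h. Over all genes, 0.0794% passed at 6 h and 0% at 24 h. The median log2 change of the 86 genes in KO was 0.10 at 6 h and 0.03 at 24 h, against -0.00 over all genes at each time. The differences between KO and WT responses passed for 2 ligase genes at 6 h, Rnf19b and Trim47, where 0.0970% of all genes passed (0.0265% higher and 0.0706% lower in KO). At 24 h they passed for 1, Rnf19b, where 0.265% of all genes did (0.106% higher and 0.159% lower). Unadjusted p was under 0.05 for 4 ligase genes at 6 h and 9 at 24 h. For Rnf149, Trim44, Trim2 and Trim46 the difference between the KO and WT responses did not pass. For MUT against WT, 0 of 86 passed at either time by edgeR or DESeq2 (0% of all genes), with 1 and 3 at an unadjusted p under 0.05. The KO and MUT contrasts share the WT libraries.

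**Figure D4:**
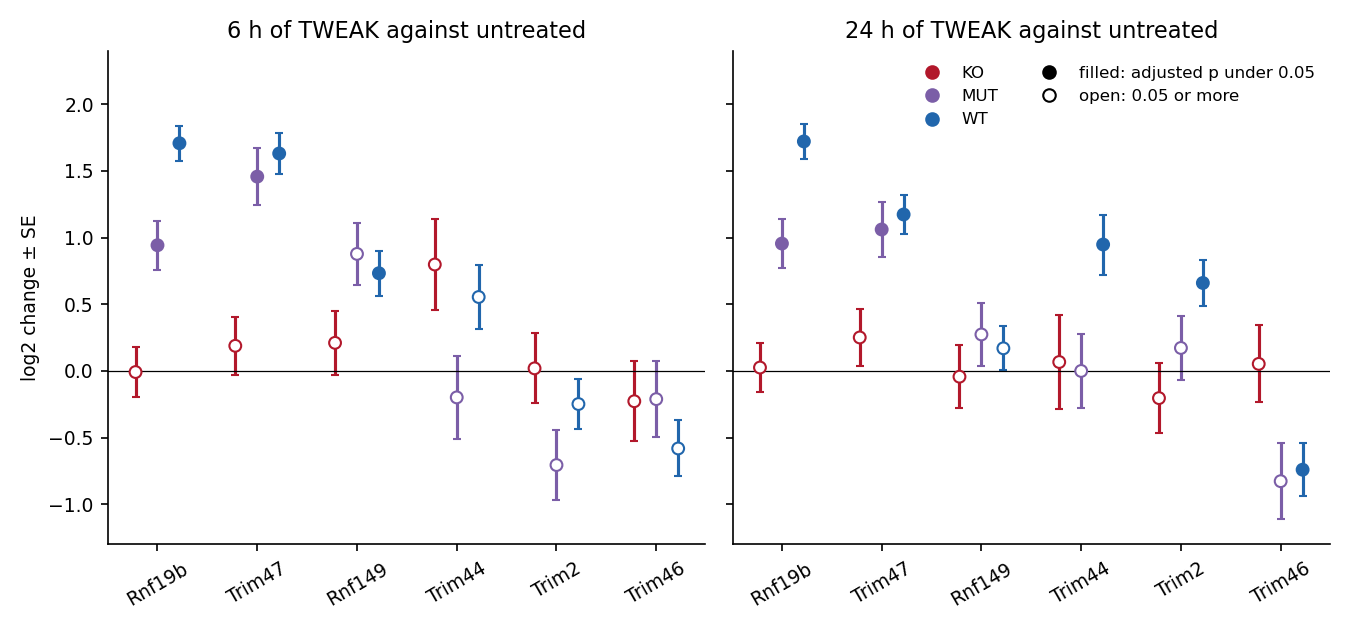
Log2 change ± SE against untreated at 6 h (left) and 24 h (right) for the 6 genes past the test in WT, in KO, MUT and WT cells, with filled points past the test. For Rnf19b the 24 h values are 0.03 in KO, 0.95 in MUT and 1.72 in WT, while for Trim47 MUT and WT lie within 1 SE of the difference at both times.

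Before TWEAK no difference between genotypes passed for a ligase gene. Between untreated KO and WT cells 0 of 86 passed (0.00882% of all genes; 4 at an unadjusted p under 0.05), and between untreated MUT and WT 0 passed (0% of all genes; 2 at an unadjusted p under 0.05), also by DESeq2. Untreated Rnf19b differed by -0.01 in KO (95% interval -0.35 to 0.32) and by 0.03 in MUT (-0.30 to 0.35). Untreated Trim47 differed by -0.34 in KO (-0.73 to 0.05) and by -0.21 in MUT (-0.59 to 0.17).

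Of all genes tested without the block, 6.41% were called in WT at 6 h and 6.87% at 24 h, and fewer in every other comparison. At such shares the small role lists given here and below could hold 0 calls without differing from all genes. Among the 5 RBR ligases counted, Rnf19b was the one past the test. Its closest relative Rnf19a had a log2 change in WT of 0.13 ± 0.21 at 6 h and 0.01 ± 0.20 at 24 h. Rnf31, known as HOIP and the catalytic subunit of the linear ubiquitin chain assembly complex, had changes of -0.02 ± 0.23 and -0.17 ± 0.22. Rnf14 had 0.12 ± 0.19 and -0.11 ± 0.18, and Rnf216 had -0.10 ± 0.12 and -0.17 ± 0.12. Among 7 ligases of the protease-associated, transmembrane RING kind, Rnf149 was called at 6 h in WT and the other 6 were not. Rnf13 had 0.22 ± 0.22 and 0.24 ± 0.22, and Rnf215 had 0.01 ± 0.19 and 0.05 ± 0.18.

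Of 6 members known to act on NF-kB signalling, none was past the test in any comparison of the main fit, where at most 6.87% of all genes were called. The main fit is that of all 24 libraries in 9 groups by edgeR without the block. Trim8, which binds SOCS1, had 127, 74.0, 63.0 and 67.7 CPM in WT cells at 6 h, against 63.9, 54.4, 54.8 and 55.3 CPM untreated. WT 6 h replicate 1 was far above the rest, one treated library lay below the highest untreated one, and the change was 0.51 ± 0.18 (adjusted p = 0.104). Rnf25, which binds the NF-kB subunit p65, had changes of 0.41 ± 0.25 and 0.63 ± 0.24 in WT and 0.95 ± 0.34 and 0.62 ± 0.34 in MUT. Rnf11, a part of the A20 ubiquitin-editing complex, had 0.08 ± 0.23 and -0.21 ± 0.23 in WT. Trim27 had 0.32 ± 0.22 and 0.14 ± 0.22.

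Genes outside the name rule that act on ubiquitin in the same pathway were counted in the same fit. Of 19 such genes tested, 6 rose and 1 fell in WT at each time, against 6.41% of all genes called at 6 h and 6.87% at 24 h. In MUT 4 rose at 6 h and 3 at 24 h, against 1.98% and 0.688% of all genes called, and in KO 0 passed at either time by edgeR. Traf1, an adaptor of TNF receptors, changed by 5.47 ± 0.46 at 6 h and 6.17 ± 0.43 at 24 h in WT (log2), and Birc3, the ligase cIAP2, by 2.51 ± 0.17 and 2.27 ± 0.17. Tnfaip3, which encodes A20, changed by 3.29 ± 0.30 and 2.32 ± 0.30, and Traf3, which holds NIK in its degradation complex, by 1.19 ± 0.17 and 1.36 ± 0.17. Peli2, a Pellino ligase, had log2 changes of -1.24 ± 0.28 and -1.08 ± 0.26. In KO Traf3 had 68.02 and 56.89 CPM at 6 h and 40.99 and 39.99 CPM at 24 h, against 31.05 and 31.51 CPM untreated. Birc3 in KO had 22.67 and 24.59 CPM at 6 h and 19.89 and 17.99 CPM at 24 h, against 11.64 and 12.61 CPM untreated. The KO and WT responses of Birc3 at 24 h differed by -1.62 ± 0.32 (log2, edgeR interaction contrast, adjusted p = 0.0305). That contrast passed for 1 of the 19 genes at 24 h, against 0.265% of all genes, and for 0 at 6 h, against 0.0970%. Treated KO libraries were above untreated ones for Traf1 at 6 h, at low counts, and below for Peli2 at both times. Tnfaip3 overlapped at both times and Traf1 at 24 h. KO had 2 libraries per group, so 0 calls do not show an absence of change. The median of the 19 genes was 0.18 at 6 h and 0.25 at 24 h in WT, and the log2 changes of Rnf19b, 1.71 and 1.72, lay between those of Birc3 and Traf3.

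The 11 antiviral and nucleic acid-sensing members gave no call in any comparison of the main fit, where at most 6.87% of all genes were called. Some passed in other edgeR fits without the block. Trim21 did so at 6 h in WT replicates 3 and 4 (1.55, adjusted p = 0.00638). Rnf213 did so at 24 h in WT replicates 1 and 2 (0.77, adjusted p = 0.0492). In the main fit the median log2 change of the 11 genes was 0.67 in KO at 6 h, where 11 of 11 were above 0, and 0.44 in KO at 24 h. In MUT the medians were 0.13 and 0.45, and in WT 0.27 and 0.17, against medians of all genes between -0.03 and 0.00. The summed level of the 11 genes was 712 and 706 CPM at 6 h in KO, against 473 and 483 CPM in untreated KO, and the groups did not overlap. In WT it was 560, 754, 499 and 423 CPM at 6 h, against 582, 558, 455 and 509 CPM untreated, and the groups overlapped. In KO at 24 h it was 770 and 633 CPM, so the treated KO libraries stood above the untreated KO ones at both times. In MUT it was 473 and 475 CPM at 6 h and 597 and 604 CPM at 24 h, against 481 and 423 CPM untreated. In WT at 24 h it was 700, 612, 566 and 518 CPM. The MUT libraries at 24 h thus stood above the untreated MUT ones too, while those of MUT at 6 h and of WT at 24 h overlapped their untreated libraries. Rnf213 made up a part of this, with 187 and 164 CPM at 24 h in KO, against 77.6 and 70.7 CPM untreated, a log2 change of 1.24 ± 0.34 (adjusted p = 1). Trim34a, counted at few UMIs, changed by 1.27 ± 0.46 in KO at 6 h, and Trim56 by 0.85 ± 0.31 (adjusted p = 1 for each). Neither of these passed over all genes, nor did the following in MUT in the main fit. Trim21, the cytosolic antibody receptor, changed by 1.02 ± 0.38 in MUT at 24 h (adjusted p = 0.312), and Rnf135, which activates RIG-I, by 0.89 ± 0.26 (adjusted p = 0.159, with the replicate block 0.87, adjusted p = 0.0397). The numbers used by the block were not seen to pair MUT libraries. Rnf114 had 0.48 ± 0.19 in KO at 6 h and in MUT at 24 h. In an edgeR fit of the MUT 24 h and untreated groups alone, Trim21 passed at 1.01 (adjusted p = 0.00946). Rnf135, at 0.88 (adjusted p = 0.0247), and Rnf114, at 0.47 (adjusted p = 0.0227), passed there too.

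**Figure D5:**
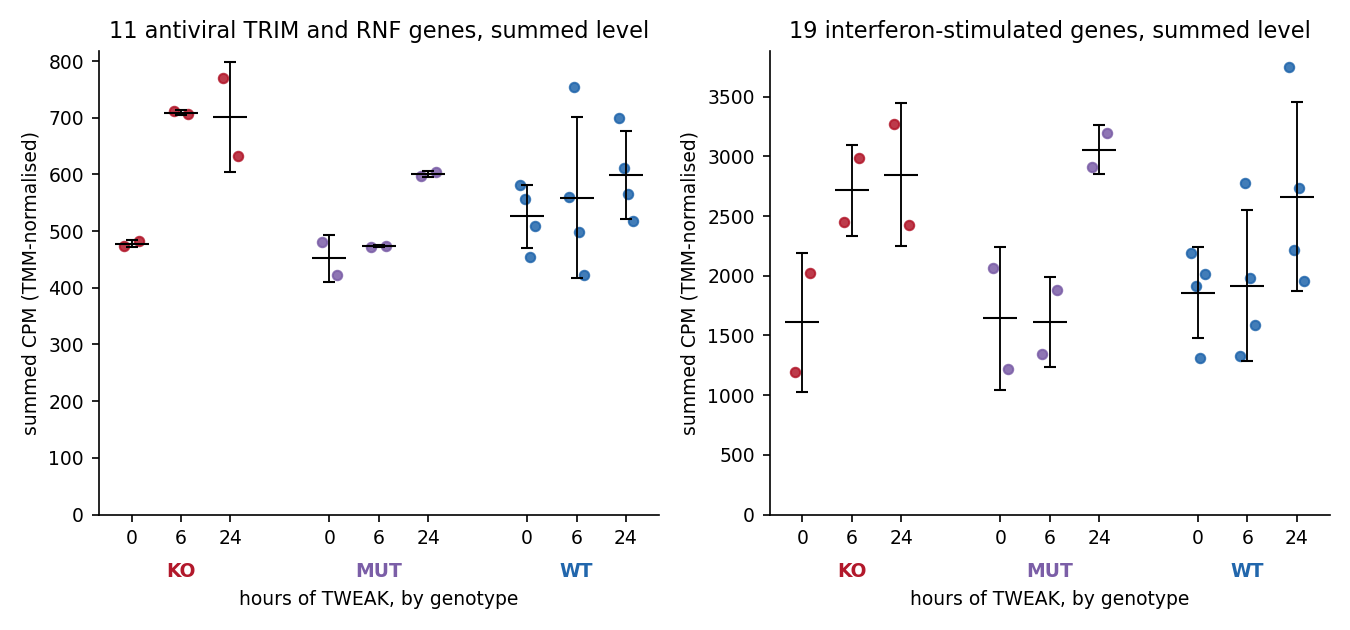
Summed TMM-normalised CPM of the 11 antiviral Trim and Rnf genes (left) and of 19 interferon-stimulated genes (right) in each library (points), with group mean and SD (bars), by genotype and hours of TWEAK. In KO the antiviral sums are 712 and 706 at 6 h, against 473 and 483 untreated, and in MUT 597 and 604 at 24 h, against 481 and 423 untreated, while WT libraries overlap between times.

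Interferon-stimulated genes outside the name rule were measured beside this group. Their median log2 change over 18 tested genes was 1.13 in KO at 6 h and 0.93 at 24 h, with 0 past the test by edgeR, and 0.36 and 0.57 in WT, with 2 past the test at each time. In MUT the medians were -0.04 at 6 h, with 1 past the test, and 1.04 at 24 h, with 0 by edgeR. Their summed level varied among untreated libraries, at 1197 and 2021 CPM in KO and 2193, 1916, 1312 and 2019 CPM in WT. Their part in the values of the antiviral ligases was not tested, and none of the differences between KO and WT responses passed for these ligases.

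Members with chromatin or DNA damage roles gave 0 calls of 13 in every comparison of the main fit, and some passed in other fits without the block. At most 6.87% of all genes were called in any comparison of the main fit. Trim28 had log2 changes in WT of -0.08 ± 0.18 at 6 h and 0.35 ± 0.18 at 24 h, and Rnf20, which with Rnf40 attaches ubiquitin to histone H2B, had 0.10 ± 0.17 and 0.06 ± 0.17. Rnf4, a ligase for SUMO-modified proteins, had 0.36 ± 0.13 at 6 h (adjusted p = 0.111). Trim66 had -1.05 ± 0.34 in WT at 24 h (adjusted p = 0.0633), -1.12 ± 0.45 in MUT and -0.02 ± 0.48 in KO. With WT replicates 1 and 2 alone the 24 h change of Trim66 was -1.44 and passed (edgeR, adjusted p = 0.0469). Of 8 members of the endoplasmic reticulum membrane none passed in the main fit either. Rnf185, which helps clear misfolded membrane proteins, had -0.24 ± 0.18 and -0.26 ± 0.18 in WT. With WT replicates 3 and 4 alone Rnf185 passed at 6 h (-0.65, edgeR, adjusted p = 0.0495). Of the 3 members with an NHL domain Trim2 was called, while Trim3 had -0.21 ± 0.18 and -0.37 ± 0.17 in WT and Trim32, mutated in a human limb-girdle muscular dystrophy, 0.00 ± 0.16 and 0.08 ± 0.15.

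In the authors' deposited table, members with an adjusted p under 0.05 in WT were Rnf149, Rnf19b and Trim47 at 6 h, and Rnf19b, Rnf213, Trim2, Trim44, Trim46 and Trim47 at 24 h. Rnf213, the one not called here in the main fit, has a log2 fold change of 0.72 and an adjusted p of 0.0487 in the authors' deposited table. By DESeq2 it passed here too (0.72, adjusted p = 0.0468). For MUT the authors' deposited table adds Rnf149 at 6 h, with 0.90 and an adjusted p of 0.0163, to Rnf19b and Trim47, and for KO it lists no member under 0.05.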

How the data were processed

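Bulk MARS-seq gives 3′ counts of UMIs. Per the submitters' processing notes, reads were handled with cutadapt, STAR 2.7.10a, HTSeq and DESeq2 on GRCm38. RNA was extracted with either of 2 kits, per the labels' protocols, without saying which served which library. The deposited table holds unnormalised counts per gene, with at least 6 in some library for every gene, and the authors' own comparisons, as a log2 fold change and an adjusted p-value each, per the file headers. A further 48 per-sample columns were not used. The mapping of library names that say 3 h or TAD to the labelled 6 h and MUT groups rests on the library names in the labels.

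The counts were fitted with edgeR 4.0.16 in R 4.3.3. The filter filterByExpr by group kept 11337 of 13479 genes and left out 2142, normalisation was by TMM, and the 24 libraries in 9 groups were fitted together with glmQLFit. The quasi-likelihood F test was applied to 13 contrasts with Benjamini-Hochberg adjustment over all tested genes at 0.05. SE is the log2 change divided by the square root of F, and intervals are 95% intervals from it. A count of 0 allows up to 3 counts in a library, and such limits cover counting error only. The test was checked on simulated data. Alternatives were RLE size factors, no filter, DESeq2 1.42.0, a replicate block, the compared groups alone, WT libraries of 1 set, and each library left out in turn. A fit that leaves 1 library in a group assumes that it varies like the other groups.

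Equal numbers pair libraries where the deviations of 7289 genes from their group means correlate (those with average log2 CPM over 4). In WT they did, at 0.328 to 0.688 for every pair of times, in part because the numbers also carry the library sets. In MUT the values were 0.00108 to 0.0710 and in KO -0.282 to 0.0996. The pairing in WT comes from these values, not from the labels.

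The ligase genes and the role lists were chosen with earlier results of these data known. Genes named are Rnf19b and Trim47, every member past the test, the 3 members of each role list with the highest CPM, and the 3 with the smallest p short of the threshold in each response. The block's added genes, close relatives of called genes and the lowest and highest levels were chosen after seeing values. Among genes of other names, up to 4 a list with the smallest p in WT were named. Promoter windows are from RefSeq on GRCm38.p6 and gene positions from GENCODE M21.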

Additional observations from a re-analysis of the deposited data

Results flagged for a closer look

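Among untreated WT libraries, replicate 2 stood apart for Trim47 at 92.6 CPM, the others being at 108 to 111 CPM, and replicate 1 stood apart for Trim8 at 63.9 CPM, the others being at 54.4 to 55.3 CPM. These are 2 of 96 groups of 4 libraries examined, and chance sets apart about 1 in 20 groups. The response to TWEAK differed between KO and WT cells, by a test of the difference itself, for Rnf19b at 6 h (log2 difference -1.71) and 24 h (-1.69) and for Trim47 at 6 h (-1.44), as given with their errors and adjusted p in the results.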

How the results depend on the processing

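Counts of ligase genes past the test moved by more than 1.5 times under these alternatives. With the replicate block they were 5 at 6 h and 15 at 24 h in WT, 5 at 6 h in MUT and 6 between 24 and 6 h in WT. With the block and the KO numbers crossed, an alternative chosen after seeing the data, they were 6, 15, 5 and 7. Groups compared alone gave 7 and 10 in MUT at 6 and 24 h, 0 for KO against WT responses at 6 h and 0 between 24 and 6 h in WT. With the library sets as separate groups, MUT gave 6 and 4. WT replicates 3 and 4 alone gave 7 at 6 h, 3 at 24 h and 4 between the times, and WT replicates 1 and 2 alone 9 at 24 h. DESeq2 gave 3 between the times. With 1 library left out, counts ranged over 2 to 4 and 3 to 8 in WT at 6 and 24 h, 1 to 1 and 0 to 0 in MUT, 0 to 2 and 1 to 1 for KO against WT responses, and 1 to 4 between the times. KO responses, MUT against WT responses and untreated differences stayed at 0 in every fit run. The block changed no other count by that much. The share of all genes called in each of these fits is not given here. The counts therefore do not show whether ligase genes moved more than other genes. Rnf19b and Trim47 passed in WT at both times in all 16 alternatives. Changes that did not pass in KO changed sign in some fits: at 6 h that of Trim47 ran from -0.12 to 0.60 and that of Rnf19b from -0.21 to 0.15 (log2), and at 24 h that of Trim47 from -0.05 to 0.66. The causes were not tested. Depth limits Trim30d, Trim34a and Rnf170 most, and groups of 2 limit KO and MUT.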

Other observations

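Trim7, whose protein binds glycogenin, the starter of glycogen chains, had the second widest range of group means among the 86 genes and was picked out after its values were seen. Its level moved with the library sets. It was 19.6 to 31.3 CPM in the 6 KO libraries and 18.97 to 45.8 CPM in the 6 libraries of WT replicates 1 and 2. In the 6 MUT libraries it was 6.40 to 16.9 CPM, and in the 6 libraries of WT replicates 3 and 4 it was 4.59 to 17.9 CPM. The sets did not overlap. Since the KO libraries lie in one set and the MUT libraries in the other, genotype and set cannot be told apart there. What the sets differ in was not tested.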
